A study of Mus musculus with 7 samples.

Results

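Mn1 is 1 of the 34305 rows of a gene-level table of estimated RNA-seq read counts from 7 libraries of haematopoietic stem and progenitor cells (HSPCs) of the mouse, grown in culture, and the row was taken by its gene symbol. Of these libraries, 3 came from cells transduced with MN1-∆pQ, 3 from cells transduced with MN1 and 1 from untransduced cells. The labels do not spell out ∆pQ, which is read here as MN1 without its polyglutamine stretch; the borders of the deletion, the species of both constructs, their vector and its promoter are not given in any source used here. By the labels' protocols the cells were transduced, sorted and grown for 7 to 9 days in medium with 15% serum, IL-3, IL-6 at 10 ng/mL and stem cell factor at 20 ng/mL. Which library was taken on which day is not given, and the source field of the untransduced library also says transduced, against its title and its overexpression entry. The Mn1 row counts construct reads and endogenous reads together, so the 2 cannot be told apart in any library.

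MN1 is a transcriptional coregulator with no DNA-binding domain of its own, and most of its protein is intrinsically disordered. It was found as a partner of TEL (ETV6) in a leukaemia fusion, it works with retinoic acid receptors and p300, and it is often highly expressed in acute myeloid leukaemia. Forced expression of MN1 in mouse marrow progenitors gives an aggressive myeloid leukaemia in which the Hoxa genes and Meis1 are active, and resistance to retinoic acid.

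Total counts ran from 43025322 to 67728808 in the MN1-∆pQ libraries and from 38210847 to 43195204 in the MN1 libraries, and the untransduced library had 38643092. HSPC markers differed in how evenly they were present. Kit, the stem cell factor receptor, had 248 to 875 CPM (counts scaled to a common library size) in MN1-∆pQ, 237 to 431 in MN1 and 605 in untransduced cells. Kit is also a mast cell marker. Cd34 had 160 to 261 CPM in MN1-∆pQ, 527 to 650 in MN1 and 301 in untransduced cells. In contrast, Flt3 had 0.25 to 7.00 CPM in MN1-∆pQ, 64.4 to 111 in MN1 and 1.62 in untransduced cells. Markers of mature cells were also present, and Ltf, a secondary granule protein of neutrophils, had 3969 to 5986 CPM in MN1-∆pQ, 141 to 459 in MN1 and 5488 in untransduced cells. MN1-∆pQ replicate 2 stood apart from the other libraries of its group: the root mean square difference in log2 CPM over all tested genes was 0.82 and 0.98 to replicates 1 and 3, against 0.54 between those. The main results that rest on it are given with and without it.

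In the mouse reference, Mn1 lies on chromosome 5 of GRCm38, plus strand, from 111417362 to 111457033, with 2 exons. The GENCODE transcript used here has 6860 bases, of which 3891 are coding. Its longest run of glutamine codons has 26 codons, 18 CAG and 8 CAA, at codons 512 to 537 in the coding part of exon 1, chr5:111419699-111419776. The run is shown because it is the stretch by which the 2 constructs are read to differ; the window is chr5:111419639-111419836, 198 bases on the plus strand, 5′ to 3′, with the run in capitals.
Mn1 glutamine codon run: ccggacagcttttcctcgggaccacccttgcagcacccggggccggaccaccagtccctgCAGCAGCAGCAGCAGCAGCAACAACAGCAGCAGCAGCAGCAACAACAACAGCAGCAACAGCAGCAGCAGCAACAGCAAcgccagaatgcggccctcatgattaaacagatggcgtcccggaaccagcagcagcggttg
This run is 2.00% of the coding length of the mouse transcript. How much sequence the MN1-∆pQ construct lacks is not known, since the borders of the deletion and the species are not given. Of the 6938 distinct 31-base words in the Mn1 transcripts, 50 (0.721%) also occur on the same strand in transcripts of other genes, and 31 of these overlap the run. Through the run, 14 other genes share such words, and 10 of them were tested. Of these, 0 were higher and 1 was lower in MN1-∆pQ than in MN1 (edgeR adjusted p under 0.05). Of all tested genes, 11.1% were higher and 6.08% lower, so this count is near what any 10 genes would give. That gene, named after its values were seen, was Bahcc1, with 9.00, 26.6 and 8.90 CPM in MN1-∆pQ, 69.9, 100.1 and 109.7 in MN1 and 8.93 in untransduced cells (log2 fold change -2.65, edgeR adjusted p = 0.0165). It was low in untransduced cells, as it was in MN1-∆pQ replicates 1 and 3.

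Mn1 was highest in the MN1-∆pQ libraries, lower in the MN1 libraries and far lower in untransduced cells, with no overlap between the groups. Estimated counts of Mn1 were 42448.3, 19740.9 and 29297.2 in MN1-∆pQ replicates 1, 2 and 3, 12878.3, 12410.5 and 13599.6 in the MN1 replicates, and 1225.2 in untransduced cells. Scaled by TMM (trimmed mean of M-values, a size factor from the bulk of genes), these were 691, 404 and 728 CPM in MN1-∆pQ, 314, 287 and 288 CPM in MN1, and 33.6 CPM in untransduced cells. The 3 MN1 libraries lay close together, whereas MN1-∆pQ replicate 2 lay nearer to them than to the other MN1-∆pQ libraries. The group means were 607 ± 177 CPM in MN1-∆pQ and 297 ± 15.1 CPM in MN1 (SD, n = 3 each), with an SD of 29.2% and 5.10% of the mean. The level was 20.6, 12.0 and 21.7 times that of the untransduced library in the MN1-∆pQ replicates and 9.36, 8.56 and 8.59 times in the MN1 replicates.

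**Figure D1:**
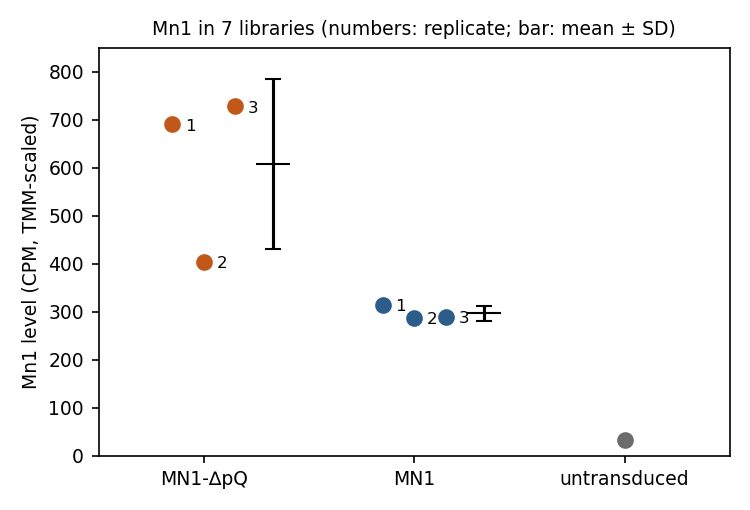
Mn1 level (vertical axis, TMM-scaled CPM from 0) in the 3 MN1-∆pQ, 3 MN1 and 1 untransduced libraries. Each point is a library, numbers are replicates, and bars beside the points show the mean ± SD. The MN1-∆pQ libraries lie at 404 to 728 CPM, the MN1 libraries at 287 to 314 CPM and the untransduced library at 33.6 CPM.

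In order, the levels were MN1-∆pQ replicate 3, replicate 1 and replicate 2, MN1 replicates 1, 3 and 2, and the untransduced library. The 95% Poisson intervals of neighbours in this order were apart except for MN1 replicates 3 and 2, at 284 to 293 and 282 to 292 CPM. These intervals cover counting error only. Mn1 counts were large enough that counting error was far below the spread of the MN1-∆pQ libraries: replicate 2 had 398 to 410 CPM, and replicate 1 had 684 to 697 CPM.

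Mn1 was higher in MN1-∆pQ than in MN1 by 1.05 on the log2 scale (SE 0.23; edgeR quasi-likelihood test, 3 against 3 libraries, adjusted p = 0.0282). By p-value this was place 1425 of the 14808 genes tested, of which 2544 (17.2%) passed the threshold of 0.05 in this comparison, or 4545 in a fit that also held the replicate number as a block (the blocked fit). Of the 2544, 1643 were higher and 901 lower in MN1-∆pQ; with libraries scaled by their totals, 1140 were higher and 1847 lower. Libraries of the same replicate number gave MN1-∆pQ to MN1 ratios of 2.20, 1.41 and 2.52. An exact two-sided permutation test of Mn1 CPM gave p = 0.1, the smallest that 3 against 3 samples allow. The call was lost in 5 of 6 fits that left out a library (adjusted p 0.0750 to 0.104), all but that without MN1-∆pQ replicate 2, which gave a log2 fold change of 1.25 (adjusted p = 0.000752). Its direction was the same in all 6, with log2 fold changes of 0.89 to 1.25. Over the untransduced library, the group means of log2 CPM were higher by 4.13 in MN1-∆pQ and by 3.14 in MN1; with 1 untransduced library there is no test.

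Per kilobase of transcript, which allows a rough comparison between genes, Mn1 stood among the more abundant mRNAs of the transduced cells. The length was that of the longest annotated transcript of each gene, 6860 bases for Mn1. The length of the construct transcripts is not known, so the Mn1 values and ranks in transduced cells are approximate. Mn1 had 101, 58.9 and 106 CPM per kilobase in MN1-∆pQ, 45.8, 41.9 and 42.1 in MN1, and 4.89 in untransduced cells. It thereby exceeded 94.97%, 91.6% and 95.6% of 14683 tested genes with a known length in the MN1-∆pQ libraries, 88.4% to 89.6% in the MN1 libraries and 46.7% in the untransduced library. Its textbook partner Ep300, the acetyltransferase p300, had 18.4 to 22.3 CPM per kilobase in MN1-∆pQ, 14.0 to 16.3 in MN1 and 17.4 in untransduced cells. Mn1 therefore exceeded Ep300 in every transduced library and was below it in untransduced cells. Crebbp, which encodes the related acetyltransferase CBP, stayed between 4.37 and 6.28 CPM per kilobase across all 7 libraries, close to the level of Mn1 in untransduced cells.

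The tested genes beside Mn1 on chromosome 5 did not pass the edgeR test between MN1-∆pQ and MN1. On the near side lie Chek2, a DNA damage checkpoint kinase, Ttc28 and Pitpnb, a phosphatidylinositol transfer protein, and on the far side the crystallin genes Cryba4 and Crybb1, too low to be tested, and Tpst2, a tyrosylprotein sulfotransferase. Of the 4 tested, 0 were called between MN1-∆pQ and MN1 by edgeR, 1 had an unadjusted p under 0.05 and 1 was called by DESeq2. Over all 14808 tested genes these counts were 2544 (17.2%), 5590 and 4342, so 4 genes are too few to set them apart. Chek2, Pitpnb and Tpst2 had log2 fold changes of 0.11, -0.21 and 0.19. Ttc28 had 15.7, 2.87 and 23.8 CPM in MN1-∆pQ, 5.10, 2.73 and 4.84 in MN1 and 19.7 in untransduced cells. It was thus low in MN1-∆pQ replicate 2, the library of that group with the least Mn1, but high in untransduced cells. In the fit described below that adds log2 Mn1 CPM beside the group, Ttc28 had a slope on Mn1 of 3.38 (edgeR adjusted p = 0.0310). That slope was called in 2 of 6 fits without a library.

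The place of a library on the other genes did not follow its Mn1 level across all 7 libraries. Each library was placed on the line that runs, over all tested genes except Mn1, from the MN1 mean at -1 to the MN1-∆pQ mean at 1, with the library itself left out when the line was drawn. MN1-∆pQ replicates 1, 2 and 3 stood at 1.29, -0.14 and 1.52, the MN1 replicates at -0.72, -0.92 and -0.93, and the untransduced library at 1.21. Among the 6 transduced libraries, those with more Mn1 stood nearer to the MN1-∆pQ end, apart from MN1 replicates 2 and 3. The Mn1 levels of those 2 cannot be told apart by counting. Since the line joins the group means and the groups do not overlap in Mn1, this order between groups follows largely from the line. Within MN1-∆pQ, replicate 2 had the least Mn1 and stood furthest from the end of its group. The untransduced library, with the least Mn1 of all, stood at the same end as MN1-∆pQ replicates 1 and 3, which had the most. No correlation is given, since the libraries fall into separate clusters. With the line drawn without MN1-∆pQ replicate 2, replicates 1 and 3 stood at 0.64 and 1.00, the MN1 replicates at -0.78, -0.99 and -0.93 and the untransduced library at 0.84.

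**Figure D2:**
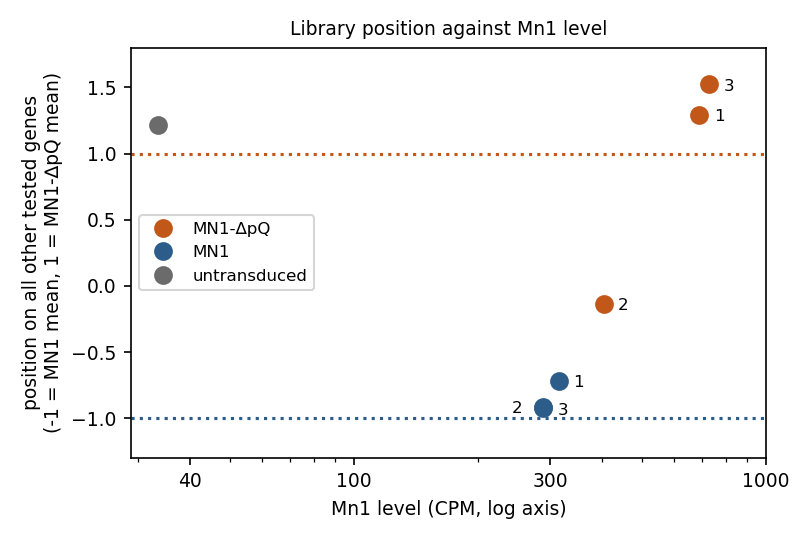
Position of each library on all tested genes other than Mn1 (vertical axis, no unit, -1 for the MN1 mean and 1 for the MN1-∆pQ mean, dotted) against its Mn1 level (horizontal log axis, CPM). Points are libraries and numbers are replicates. MN1-∆pQ replicates 1 and 3 (1.29 and 1.52) and the untransduced library (1.21) share the upper end at opposite ends of the Mn1 range, and MN1-∆pQ replicate 2 lies at -0.14.

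Distances between whole profiles gave the same picture. MN1-∆pQ replicate 1 and the untransduced library were the closest pair of the 21, with a root mean square difference of 0.47 in log2 CPM, although their Mn1 levels differed by 4.36 on the log2 scale. MN1-∆pQ replicate 3 and the untransduced library differed by 0.60, as much as MN1 replicates 2 and 3, whose Mn1 differed by 0.0060 on the log2 scale. MN1-∆pQ replicate 2 was nearer to MN1 replicates 1 and 2 (0.74 and 0.78) than to any other library. The distances of the MN1 libraries from the untransduced library were 1.14 to 1.28. The first principal component held 71.9% of the variance, with scores of 67.0, -8.16 and 81.2 in MN1-∆pQ, -61.5, -76.2 and -71.6 in MN1 and 69.2 in untransduced cells.

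Few genes had their groups in the order of Mn1, which is untransduced lowest, then MN1, then MN1-∆pQ, with no overlap. Between MN1-∆pQ and MN1 alone, 6455 tested genes (43.6%) did not overlap. All 3 groups stood apart in some order for 2644 genes, and MN1 lay in the middle for 70 of these (2.65%), MN1-∆pQ for 2025 (76.6%) and the untransduced library for 549 (20.8%). The Mn1 order held for 46 tested genes (0.311%), Mn1 included, and its reverse for 24 (0.162%). Without MN1-∆pQ replicate 2, which leaves fewer libraries to keep apart, MN1 lay in the middle for 136 genes, MN1-∆pQ for 3189 and the untransduced library for 2380. No other gene had the full order of Mn1 over the 7 libraries. The 1 gene in the full reverse order was Marcksl1, which encodes a MARCKS-like actin-binding protein and was picked out for this order. It had 74.2, 95.4 and 72.6 CPM in MN1-∆pQ, 112, 147 and 132 in MN1 and 151 in untransduced cells.

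**Figure D3:**
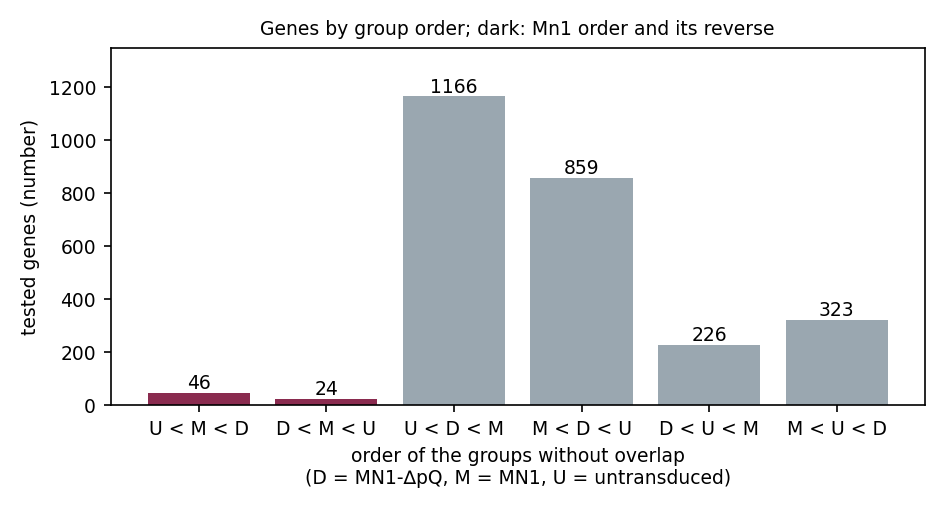
Number of tested genes (vertical axis, from 0) in each of the 6 orders in which the groups can stand without overlap, where D is MN1-∆pQ, M is MN1 and U is untransduced. The dark bars, 46 genes in the Mn1 order and 24 in its reverse, are far below those with MN1-∆pQ in the middle, 1166 and 859.

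Genes in the Mn1 order moved little. Over the 45 other than Mn1, the median step was 0.30 on the log2 scale for MN1-∆pQ over MN1 and 0.17 for MN1 over untransduced, and none had both steps at 1 or more. In the reverse order, the median steps were -1.63 and -0.73, and 10 of the 24 genes had both steps at 1 or more in size. With libraries scaled by their totals, 16 genes stood in the Mn1 order and 30 in its reverse.

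Of the 46 genes in the Mn1 order, Mn1 included, 5 were called between MN1-∆pQ and MN1, where 17.2% of all tested genes were called. Besides Mn1, 3 met the rule for naming, which itself required the call. Miga1, which encodes a mitochondrial fusion protein, had 292, 189 and 312 CPM in MN1-∆pQ, 159, 165 and 160 in MN1 and 134 in untransduced cells. As for Mn1, MN1-∆pQ replicate 2 was the lowest of its group and the MN1 libraries were alike; its log2 fold change was 0.72 (SE 0.19, edgeR adjusted p = 0.0478). Pdzd8, a lipid transfer protein at membrane contacts, had 146, 160 and 162 CPM in MN1-∆pQ, 125, 125 and 122 in MN1 and 116 in untransduced cells. Aff1, a subunit of the super elongation complex and a fusion partner of KMT2A in leukaemia, had 141, 161 and 155 CPM in MN1-∆pQ, 113, 109 and 109 in MN1 and 109 in untransduced cells. Their log2 fold changes were 0.34 (edgeR adjusted p = 0.0489) and 0.47 (adjusted p = 0.0226), and neither was lowest in MN1-∆pQ replicate 2. All 3 calls were lost in 5 of 6 fits without a library, and with libraries scaled by their totals, where the log2 fold changes were 0.51, 0.14 and 0.28.

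The reverse order held interferon-stimulated genes, which cells switch on in response to interferon or to foreign nucleic acid. Of the 25 genes on the interferon-stimulated list, 7 were among the 24 genes in the reverse order and 0 were in the Mn1 order. Irf7, the transcription factor that amplifies the interferon response, had 7.74, 7.18 and 6.83 CPM in MN1-∆pQ, 58.1, 17.0 and 73.6 in MN1 and 81.3 in untransduced cells. MN1 replicate 2 was the lowest of its group, although the 3 MN1 libraries had nearly the same Mn1 level. Oas2, an oligoadenylate synthetase that senses double-stranded RNA, had 1.63, 2.05 and 1.94 CPM in MN1-∆pQ, 18.6, 4.12 and 15.3 in MN1 and 37.7 in untransduced cells. Ifit1, which binds foreign RNA, had 0.78, 1.66 and 0.42 CPM in MN1-∆pQ, 16.4, 4.72 and 22.3 in MN1 and 34.0 in untransduced cells. Slfn5, a Schlafen family gene induced by interferon, had 7.79, 8.84 and 6.31 CPM in MN1-∆pQ, 38.7, 13.7 and 56.8 in MN1 and 101 in untransduced cells. In all 4, every MN1-∆pQ library lay below every MN1 library, as the rule that named them required. The MN1-∆pQ libraries lay close together for Irf7, Oas2 and Slfn5, whereas Ifit1 was highest in replicate 2, the library of that group with the least Mn1.

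These genes were lower in MN1-∆pQ than in MN1, by log2 fold changes of -2.76 (Irf7, SE 0.50, edgeR adjusted p = 0.0180), -2.75 (Oas2, adjusted p = 0.0224), -3.90 (Ifit1, adjusted p = 0.0189) and -2.24 (Slfn5, adjusted p = 0.0277). Ifit3, Oas3, Oasl1 and Oasl2, of the same families, had log2 fold changes of -3.75, -2.64, -2.48 and -4.44. Ifit3 did not pass in the blocked fit (edgeR adjusted p = 0.0527). All these genes were named for the reverse order and for passing the test without the block, so that passing is no separate result. Over the whole list, 15 of 25 fell and 0 rose in MN1-∆pQ, with a median log2 fold change of -2.64 against 0.01 for all tested genes; 6.08% of all tested genes fell and 11.1% rose. Without MN1-∆pQ replicate 2, 17 fell and 0 rose, where 20.6% of all tested genes fell and 21.3% rose. The summed level of the list was 298 to 344 CPM in MN1-∆pQ, 897, 378 and 1075 CPM in MN1 and 1086 CPM in untransduced cells. The Irf7, Oas2, Ifit1 and Slfn5 calls held in 2 of 6 fits without a library, and members of these families share sequence, so their separate levels are uncertain.

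**Figure D4:**
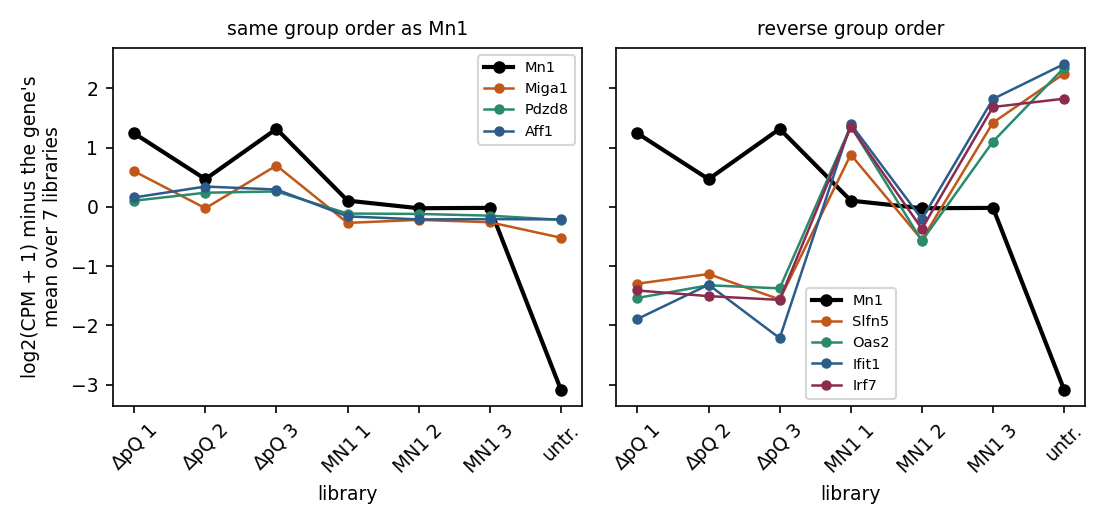
Level of Mn1 (black) and of named genes in the Mn1 order (left) or its reverse (right), as log2(CPM + 1) minus the gene's own mean over the 7 libraries, by library. Miga1 follows Mn1 among the transduced libraries with smaller steps, and the 4 genes on the right are lowest in MN1-∆pQ and dip in MN1 replicate 2.

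By profile over the 7 libraries, the tested gene nearest to Mn1 was Zbed6, a zinc finger repressor that arose from a DNA transposon. The measure was the root mean square difference in centred log2 CPM, on which a gene with no variation would lie at 1.38 from Mn1, whose range was 4.44 on the log2 scale. Zbed6 lay at 0.66, with 7.13, 6.67 and 9.29 CPM in MN1-∆pQ, 6.10, 7.73 and 9.19 in MN1 and 1.32 in untransduced cells. Its likeness lay in the low untransduced library, since the MN1-∆pQ and MN1 libraries overlapped. Angptl2, a secreted angiopoietin-like factor, lay at 0.96, and Zbtb16 (PLZF, a transcriptional repressor), Miga1, Top3b, Slc19a2, Ccl24 and Zfp871 at 1.06 to 1.12, little below the value for a gene with no variation. Of these 8, Miga1 was called, higher in MN1-∆pQ than in MN1, where 17.2% of all tested genes were called. In the blocked fit, Miga1 and Ccl24 (edgeR adjusted p = 0.0495) were called higher. Zbtb16 was called lower in that fit (log2 fold change -0.67, edgeR adjusted p = 0.0370), opposite to Mn1 between these groups. The shares of all tested genes called higher and lower in the blocked fit were 17% and 13.7%. Nearest to the mirror image of Mn1 was Slfn4, a Schlafen gene of myeloid cells, at 0.58, with 12.6, 8.25 and 5.79 CPM in MN1-∆pQ, 21.3, 8.63 and 19.6 in MN1 and 110 in untransduced cells. After it came Ifi204, a DNA sensor of the interferon-inducible p200 family (0.66), the inflammatory cytokine gene Il1b (0.77), then Ifi27l2a, Slfn5, Dpep2, Ifi207 and Zbp1 (0.83 to 0.88). For 6 of these 8 the transduced groups overlapped, and all 8 were highest in the untransduced library. Slfn5 was called lower in MN1-∆pQ than in MN1, with Ifi27l2a (edgeR adjusted p = 0.0393) also lower in the blocked fit.

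Within the groups, the Mn1 level was set against each other gene by adding log2 Mn1 CPM as a term beside the group. A slope is the change in a gene's log2 level per log2 unit of Mn1 among libraries of the same construct. Most of the Mn1 variation in this fit came from MN1-∆pQ: replicate 2 held 64.4% of the within-group sum of squares, replicate 3 held 21.2%, replicate 1 held 11.7% and the MN1 libraries the rest, each under 2%. A slope was called for 835 of 14807 genes (5.64%; edgeR quasi-likelihood test, adjusted p under 0.05), with 478 upward and 357 downward, and 3909 genes had an unadjusted p under 0.05. Without MN1-∆pQ replicate 2, 0 slopes were called by edgeR and 160 had an unadjusted p under 0.05. Without replicate 1 or 3 of that group, 31 and 27 were called, and without MN1 replicate 1, 2 or 3, 84, 701 and 1629. The slopes therefore describe chiefly how MN1-∆pQ replicate 2 differed from replicates 1 and 3.

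The upward slopes with the smallest p were led by eosinophil granule genes. Epx, eosinophil peroxidase, had 760, 73.5 and 884 CPM in MN1-∆pQ, 3.66 to 5.32 in MN1 and 806 in untransduced cells, with a slope of 4.19 (SE 0.24, edgeR adjusted p = 0.00436). Ear6, an eosinophil ribonuclease, had 229, 11.1 and 289 CPM in MN1-∆pQ, 0.69 to 1.37 in MN1 and 257 in untransduced cells, with a slope of 5.47. Ear2 and Prg3, also of eosinophil granules, had slopes of 3.77 and 4.21, and Tmeff2, a transmembrane protein with follistatin domains, had 5.83. Each was high where Mn1 was highest, as their choice by upward slope largely fixes, and also in untransduced cells, where Mn1 was lowest. Ear genes share sequence, and their separate levels are uncertain.

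The downward slopes with the smallest p were those of Tifab, Gpam, Ptk7, Btla and Elovl6. Tifab, an inhibitor of TRAF6 signalling in progenitors, had 7.21, 53.0 and 4.80 CPM in MN1-∆pQ, 25.4, 36.3 and 37.2 in MN1 and 21.0 in untransduced cells, with a slope of -3.83 (SE 0.21, edgeR adjusted p = 0.00436). Gpam, which begins glycerolipid synthesis, had 12.95, 58.6 and 10.5 CPM in MN1-∆pQ, 263, 310 and 375 in MN1 and 20.1 in untransduced cells, with a slope of -2.81. Ptk7, a receptor-like pseudokinase of Wnt signalling, Btla, an inhibitory receptor of lymphocytes, and Elovl6, a fatty acid elongase, had slopes of -4.65, -3.81 and -1.79. All 5 were highest in replicate 2 among the MN1-∆pQ libraries, which follows largely from picking them by downward slope. All 10 named slopes were called in 5 of 6 fits without a library, the exception being the fit without MN1-∆pQ replicate 2.

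With Mn1 as a term, 1 gene was called between MN1-∆pQ and MN1 (0.00675% of 14807; edgeR quasi-likelihood test), and 1753 had an unadjusted p under 0.05, against 5590 without the term. The gene was Olfm4, a neutrophil granule glycoprotein, named for being the only one. It had 75.0, 45.7 and 78.5 CPM in MN1-∆pQ, 5.78, 5.39 and 5.30 in MN1 and 82.7 in untransduced cells, and its group coefficient was 2.65 with the term (adjusted p = 0.0364). Over the 2543 other genes called without the term, the median absolute log2 fold change was 1.23 without it and 0.61 with it, and the median SE was 0.24 and 0.32. Because Mn1 and the construct differ together between the groups, and 3 residual degrees of freedom are left, the share of each in these differences cannot be told apart. Under other settings 0 to 141 genes were called.

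The cell type lists set MN1-∆pQ replicate 2, which had the least Mn1 of its group, apart from replicates 1 and 3 to very different degrees. Slopes on Mn1 were called by edgeR for 0 genes without it, so the slope counts here describe chiefly that library. In bulk samples, fewer cells of a type and less RNA per cell cannot be told apart. The counts of markers stand against the shares of all tested genes that rose and fell in MN1-∆pQ, which were 11.1% and 6.08%, 17% and 13.7% in the blocked fit, and 21.3% and 20.6% without MN1-∆pQ replicate 2; upward slopes on Mn1 were called for 3.23% of genes and downward slopes for 2.41%. Eosinophil markers had a summed level of 3401, 235 and 3647 CPM in MN1-∆pQ replicates 1, 2 and 3, 21.4, 13.3 and 21.6 CPM in MN1 and 3802 CPM in untransduced cells. Of 9 tested, 7 were higher and 0 lower in MN1-∆pQ than in MN1, with a median log2 fold change of 7.01, and 7 had an upward slope on Mn1. Mast cell markers rose for 8 of 18 and fell for 0, with 9 upward slopes; Mcpt2, a mast cell protease, had 1937, 26.7 and 1505 CPM in MN1-∆pQ, 3.35 to 4.95 in MN1 and 1218 in untransduced cells. Basophil markers rose for 5 of 12 and fell for 0, with 4 upward slopes. In the blocked fit, 13 mast cell and 11 basophil markers rose. Without MN1-∆pQ replicate 2, the counts of markers that rose were 9 of 9, 16 of 19 and 10 of 12 for eosinophil, mast cell and basophil lists, which share some genes, where 21.3% of all tested genes rose.

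All 22 neutrophil markers rose in MN1-∆pQ over MN1, with and without replicate 2, and 1 had an upward slope. Their summed level was 47967, 40786 and 34729 CPM in MN1-∆pQ, 10463, 8973 and 6314 CPM in MN1 and 51074 CPM in untransduced cells. This sum rests on the most abundant genes, and single markers differed between the MN1-∆pQ libraries: 1, 9 and 12 of the 22 were lowest in replicates 1, 2 and 3, and the median ratio of the highest to the lowest library was 1.76. Mmp9, a granule gelatinase and the marker with the upward slope, had 634, 128 and 367 CPM in MN1-∆pQ, 10.8, 6.90 and 8.15 in MN1 and 948 in untransduced cells. Ly6g, a surface antigen of mouse neutrophils, had 116, 17.6 and 67.9 CPM in MN1-∆pQ, 2.37, 1.16 and 0.78 in MN1 and 134 in untransduced cells. Retnlg, a resistin-like protein, had 41.5, 14.6 and 16.2 CPM in MN1-∆pQ, 1.17, 1.25 and 0.59 in MN1 and 87.9 in untransduced cells. All 3 were lowest in replicate 2 within the MN1-∆pQ group, as were 9 of the 22 markers, and still above every MN1 library. Ltf, also named from this list, had 5986, 4262 and 3969 CPM in MN1-∆pQ. It was lowest in replicate 3, as were 12 of the 22. Primary granule genes, made earlier in neutrophil development, had their highest list median in MN1-∆pQ replicate 2, at 1.05 above the mean of the 6 transduced libraries on the log2 scale, against -0.08 and -0.42 in replicates 1 and 3. Of these, 3 of 15 rose and 0 fell, with a median log2 fold change of 0.38; without MN1-∆pQ replicate 2, 4 rose and 2 fell and the median was -0.14. Mpo, myeloperoxidase, had 998, 4301 and 324 CPM in MN1-∆pQ, 2035, 2344 and 928 in MN1 and 550 in untransduced cells, and did not pass the test. The part of this cell content in the position of each library was not tested.

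**Figure D5:**
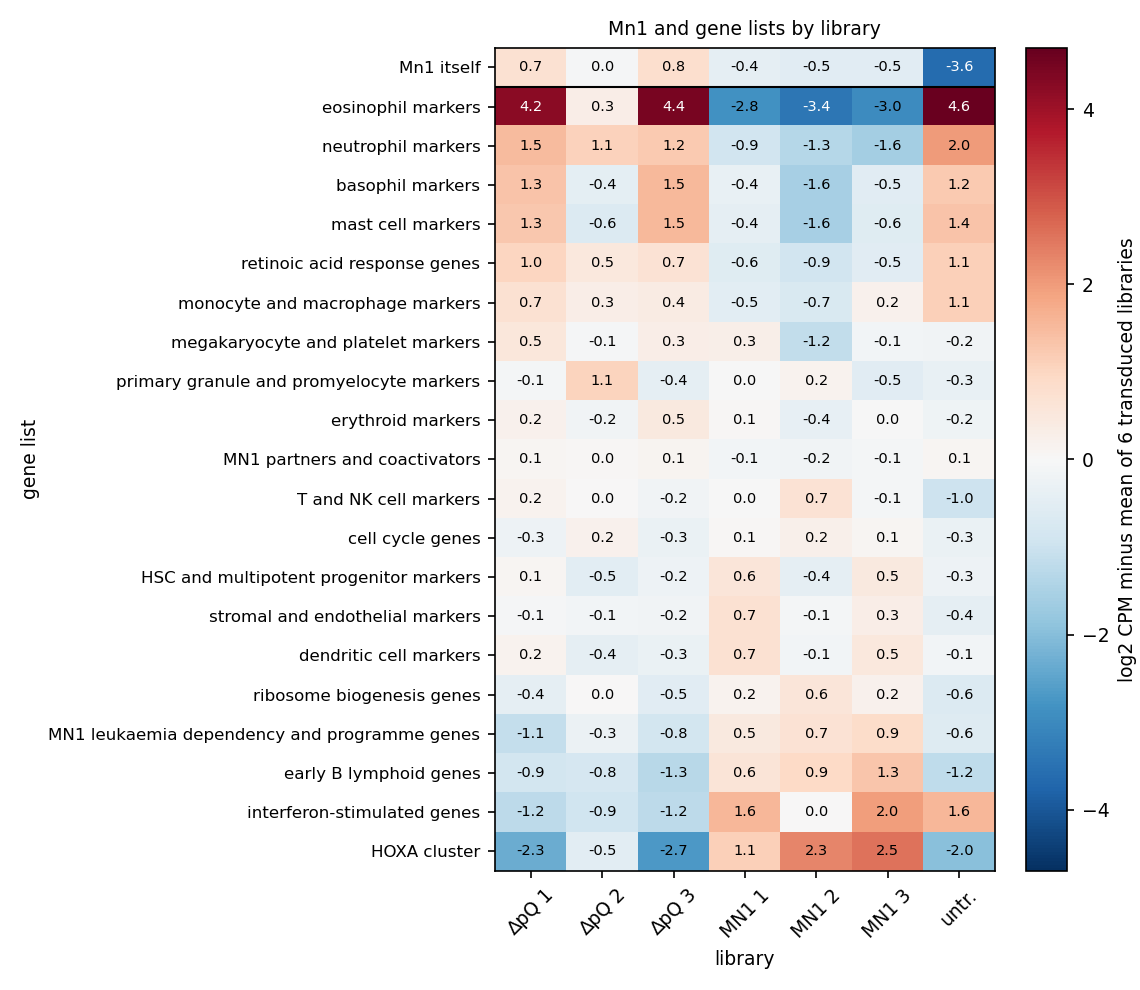
Mn1 (top) and the median of the tested genes of each of 20 lists (rows) in each library (columns), as log2 CPM minus the gene's mean over the 6 transduced libraries. Eosinophil, mast cell and basophil lists separate MN1-∆pQ replicate 2 from replicates 1 and 3, the median of neutrophil markers is positive in all 3 of these libraries, and the untransduced column is near MN1-∆pQ replicates 1 and 3 in the eosinophil and HOXA rows but not in the rows of Mn1 and of interferon-stimulated genes.

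Monocyte and macrophage markers rose for 10 of 26 and fell for 2, or 12 and 1 in the blocked fit and 12 and 6 without MN1-∆pQ replicate 2. HSC and multipotent progenitor markers rose for 0 and fell for 6 of 17, or 2 and 6 without MN1-∆pQ replicate 2, and their summed level was 1249 to 2519 CPM in MN1-∆pQ, 2044 to 2685 in MN1 and 2357 in untransduced cells. Of the other lists, 1 rose and 2 fell of 11 dendritic cell markers, 0 and 4 of 8 early B lymphoid genes, 0 and 2 of 5 T and NK cell markers, 1 and 1 of 14 erythroid markers, 1 and 0 of 15 megakaryocyte markers and 1 and 1 of 6 stromal and endothelial markers. In the blocked fit, 3 erythroid and 6 megakaryocyte markers rose, and 2 dendritic cell markers rose and 3 fell. Without MN1-∆pQ replicate 2, the counts that rose and fell were 3 and 2 of 13 dendritic cell, 2 and 5 of 8 early B lymphoid, 5 and 4 of 14 erythroid, 5 and 0 of 15 megakaryocyte and 2 and 2 of 6 stromal and endothelial genes. Several of these counts, such as those of erythroid and megakaryocyte markers in the fit of all 6 libraries, were near or below the shares of all tested genes. T and NK cell markers summed to at most 8.89 CPM in any library. Ribosome biogenesis genes fell for 5 of 22 and rose for 0, and 22 fell in the blocked fit, 21 without MN1-∆pQ replicate 2 and 18 with libraries scaled by their totals. Of 25 cell cycle genes, 0 were called by edgeR, 6 had an unadjusted p under 0.05, and 1 was called by DESeq2; 14 fell without MN1-∆pQ replicate 2, and 7 in the blocked fit.

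Of 25 tested partners and coactivators of MN1, 7 were higher and 2 lower in MN1-∆pQ than in MN1, with a median log2 fold change of 0.30; the split was 4 higher and 6 lower with libraries scaled by their totals, 8 and 8 without MN1-∆pQ replicate 2, and 10 and 4 in the blocked fit. The shares of all tested genes that were higher and lower were 11.1% and 6.08%, 7.7% and 12.5% with library totals, 21.3% and 20.6% without that library, and 17% and 13.7% in the blocked fit. Rxra, the retinoid X receptor that pairs with retinoic acid receptors, had 33.2, 10.7 and 34.9 CPM in MN1-∆pQ, 6.20, 5.39 and 7.59 in MN1 and 32.9 in untransduced cells. Its slope on Mn1 was 1.96 (edgeR adjusted p = 0.0398), called in 1 of 6 fits without a library and at -0.08 to 2.03 over them. Its log2 fold change was 2.05 (SE 0.45, adjusted p = 0.0281). Rara, the retinoic acid receptor alpha, rose by 1.13, with 55.8, 35.9 and 57.6 CPM in MN1-∆pQ, 21.8, 17.2 and 29.8 in MN1 and 78.4 in untransduced cells. Smarcc1, a core subunit of the BAF chromatin remodeller, fell by 0.85, with 114, 160 and 107 CPM in MN1-∆pQ, 210, 250 and 228 in MN1 and 87.9 in untransduced cells. For all 3, the untransduced level was nearer to those of MN1-∆pQ replicates 1 and 3 than to the MN1 libraries, despite the gap in Mn1. The calls of Rxra, Rara and Smarcc1 each held in 1 of 6 fits without a library.

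Of 12 tested retinoic acid response genes, 6 rose and 1 fell in MN1-∆pQ, or 7 and 0 in the blocked fit, against 11.1% and 6.08% of all tested genes, or 17% and 13.7% in the blocked fit. Without MN1-∆pQ replicate 2, 8 rose and 1 fell, against 21.3% and 20.6% of all tested genes. Itgam, the integrin subunit CD11b of myeloid cells, had 1519, 914 and 1333 CPM in MN1-∆pQ, 284, 222 and 211 in MN1 and 1332 in untransduced cells, a log2 fold change of 2.40. Cebpe, a transcription factor of late granulocyte maturation, rose by 2.11, with 121, 141 and 133 CPM in MN1-∆pQ, 37.4, 30.0 and 24.6 in MN1 and 125 in untransduced cells. Itgam and Cebpe were called in all 6 fits without a library. Cebpe is also on the list of 22 neutrophil markers, all of which rose, so the retinoic acid count is not separate from that rise.

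The genes tied to MN1 leukaemia fell in MN1-∆pQ where called, with 1 exception. Of 25 tested, 11 fell and 1, Runx1, rose, against 6.08% and 11.1% of all tested genes. Without MN1-∆pQ replicate 2, 15 fell and 2 rose, against 20.6% and 21.3% of all tested genes. Of 9 tested genes of the HOXA cluster, 8 fell and 0 rose, with a median log2 fold change of -3.73. The HOXA and MN1 leukaemia lists share genes, Hoxa10 and Hoxa11 among them, so their counts are not separate results. Hoxa9, a homeobox gene that sustains self-renewal, had 2.20, 7.69 and 1.07 CPM in MN1-∆pQ, 20.7, 46.8 and 40.3 in MN1 and 1.73 in untransduced cells. Its log2 fold change was -3.29 (SE 0.74, edgeR adjusted p = 0.0301) and its slope on Mn1 -2.89, called in 2 of 6 fits without a library. Its level was thus highest in the MN1-∆pQ library with the least Mn1, and low in untransduced cells, where Mn1 was lowest. Flt3, a cytokine receptor of progenitors, showed the same order of libraries among MN1-∆pQ, with 1.29, 7.00 and 0.25 CPM, against 64.4, 111 and 87.4 in MN1 and 1.62 in untransduced cells. Meis2, a homeobox cofactor, was low in all MN1-∆pQ libraries, at 0.47, 0.86 and 0.94 CPM, against 15.9, 42.2 and 31.3 in MN1 and 1.45 in untransduced cells. Meis1, the related cofactor, fell by 1.27, with 32.1, 41.8 and 41.9 CPM in MN1-∆pQ, 91.9, 61.2 and 129 in MN1 and 39.5 in untransduced cells. The call held in all 6 fits without a library for Meis2, in 2 for Flt3 and Meis1, and in 1 for Hoxa9. Of the 25 tested genes of the MN1 leukaemia list, 2 had an upward and 10 a downward slope, against 3.23% and 2.41% of all genes. Over all genes, 0 slopes were called by edgeR without MN1-∆pQ replicate 2, so these counts rest on that library.

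Among the other genes named by rule, Ramp3, a receptor activity modifying protein, and Krt9, a keratin, fell by 5.61 and 6.44 in MN1-∆pQ. Ramp3 had 2.38, 15.2 and 0.60 CPM in MN1-∆pQ, 290, 238 and 370 in MN1 and 7.29 in untransduced cells, and its slope on Mn1 was -3.99, called in 2 of 6 fits without a library. Kcna6, a voltage-gated potassium channel, had 0.0163, 0 and 0.0249 CPM in MN1-∆pQ, 6.29, 6.11 and 5.56 in MN1 and 0 in untransduced cells, so nearly all of its counts lay in the MN1 libraries. Kcna6 shares a run of at most 24 bases with the Mn1 transcript, on the opposite strand, and 13 on the same strand. Csf2rb, the common receptor chain for IL-3, IL-5 and GM-CSF, had 2260, 816 and 3306 CPM in MN1-∆pQ, 615, 395 and 669 in MN1 and 2320 in untransduced cells, with a log2 fold change of 1.94 and a slope of 2.15, called in 1 and 2 of 6 fits without a library. It too was high in both the libraries with the most Mn1 and the library with the least.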

How the data were processed

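The authors deposited estimated counts by gene symbol in 1 table that covers the 7 libraries and is not normalised. Tools named in the submitters' processing notes are kallisto and DESeq2, with the GRCm38 build; no source used here gives versions, transcript index or strand, so overlapping or antisense genes and close copies cannot be separated. Of all values, 32.5% were not whole (tolerance 1e-06); counts were rounded. In 26 rows, holding 0.172% of counts, the symbol had become a date; these stayed in the tests unnamed. Per the labels' protocols, poly(A) RNA was read from both ends at 150 bases. The series text calls the samples of a group independent; no source says they came from separate animals, so a p-value reflects only how these samples vary, which may be technical. The chi-square per gene between replicates was 40.3 to 323, far above sampling noise.

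Genes were filtered by filterByExpr on the 6 transduced libraries (14808 kept) and scaled by TMM. MN1-∆pQ was tested against MN1 by edgeR 4.0.16 in R 4.3.3 (quasi-likelihood, group as the only term, Benjamini-Hochberg over all genes, threshold 0.05). Fold changes are MN1-∆pQ over MN1. The slope fit added centred log2 Mn1 CPM. CPM used TMM over all 7 libraries, and log2 CPM a prior count of 2. DESeq2 1.42.0 was an alternative. Sequence, length and neighbours came from GENCODE M21 (Python 3.11.15); figures used matplotlib 3.10.9.

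Mn1, the 20 lists (357 entries, 2 not matched) and the rules were chosen with earlier results of these data known. Named were Mn1; the 8 genes nearest to its profile and its mirror image; up to 8 called genes in its order and in the reverse; the 5 smallest slope p-values in each direction; up to 4 called genes per list, or its most abundant; 3 neighbours a side; and a fixed set of genes. Profile and order genes needed a mean of at least 5 CPM. Predicted genes, Rik clones and pseudogenes were left out, and not all named genes are described. The blocked fit treats libraries of the same number as pairs, although the number stands only in the sample titles and its meaning is not given. Same-numbered libraries deviated from their group means together (correlations 0.368, 0.259 and 0.320, others -0.282 to -0.0602). These correlations come from the same data, and deviations from a group mean cancel within the group. They therefore cannot show that the libraries were paired, and the blocked fit is an alternative only.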

Additional observations from a re-analysis of the deposited data

How the results depend on the processing

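The log2 fold change of Mn1 in MN1-∆pQ over MN1 stayed positive and past the threshold under DESeq2 (1.03), DESeq2 size factors (1.03), library totals (0.83), no filter on low counts (1.03) and a fit of all 7 libraries (1.05); leaving out a library gave 0.89 to 1.25, with the call kept only without MN1-∆pQ replicate 2. The count of genes called was 4342 with DESeq2 and 506 to 6394 without a library, against 2544. Library totals gave a median log2 fold change of all tested genes of -0.19, against 0.01, and a split of 1140 higher and 1847 lower in MN1-∆pQ, against 1643 and 901; the cause was not tested. The Mn1 level of MN1 over the untransduced library was 3.33 with library totals, against 3.14. Slopes on Mn1 were called for 1717 genes with library totals, 1368 with no filter and 0 to 1629 without a library; group calls with Mn1 as a term were 49 with Mn1 in CPM, 18 with library totals, 141 with no filter and 0 to 78 without a library. The Mn1 order held for 16 genes with library totals, 71 with no filter, 0 with both steps at 1 or more and 71 to 97 without a library, where fewer libraries had to stand apart; the reverse order held for 49 with no filter, 10 with both steps at 1 or more and 44 to 74 without a library. MN1 replicate 2 stood at -1.09 where only genes of at least 5 CPM were used. These alternatives were chosen with the design, apart from the following, chosen after seeing the data: Mn1 as the only term (5959 slopes called), DESeq2 size factors for positions and orders, positions without MN1-∆pQ replicate 2, and list counts under library totals and without that library. Of 81 named genes called other than Mn1, 15 were called in all 6 fits without a library and 29 in 1.

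With the replicate number as a block, the log2 fold change of Mn1 was 1.00 (SE 0.19, edgeR adjusted p = 0.0260), and 4545 genes were called, 2523 higher and 2022 lower in MN1-∆pQ, of which 2439 were also called in the same direction without the block. Depth did not limit Mn1, whose lowest count was 1225, but the untransduced group has 1 library, and genes far below 5 CPM rest on few counts.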
